A study of Mus musculus with 16 samples.

Results

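The genes that copy DNA in S phase were followed in C2C12 cells, a line of mouse myoblasts that stop dividing and form myotubes in low serum. The set held 45 genes of the 49585 in each deposited count table, chosen by symbol for their roles in replication. The choice was made with earlier results of these data known. All 45 genes were found and passed the filter on low counts in every fit. They comprised 6 genes of origin licensing, 12 of the replicative helicase, 4 of the S phase kinases and cyclins, 6 of the sliding clamp and its loader, 6 of the polymerases and primase, 5 of single-strand binding and lagging-strand processing, 4 of nucleotide supply, and the transcription factors *E2f1* and *E2f8*.

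RNA-seq was available for 16 libraries in 2 tables. The first table held WT cells and AMPK-KO cells, in which *Prkaa1* and *Prkaa2*, the genes of the catalytic subunits of AMP-activated protein kinase (AMPK), had been targeted with CRISPR/Cas9. Each genotype was sampled as myoblasts in 10% serum (day 0, d0) and after 8 days of differentiation in 2% serum (day 8, d8), with 2 libraries per group. Independent AMPK-KO lines are described for the study, and the labels do not tie a library to a line. The second table held AMPK-null cells, described as undifferentiated, that carried a FLAG-BirA tag at the endogenous *Tet2* gene. The gene had either the normal sequence (TET2-WT) or the phospho-mimicking change of serine 97 (TET2-S97E). There were 2 clones per genotype and 2 libraries per clone, so that a clone was the unit of the genotype. Neither table states that libraries of 1 group came from separate cultures, so the p-values measure the spread between these libraries only. Total counts ran from 17883417 to 24663079 in the first table and from 19801909 to 37790358 in the second.

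Replication starts from origins that are licensed in G1, when the origin recognition complex, CDC6 and CDT1 load the MCM helicase onto DNA. The kinases CDC7 and CDK2 then switch the helicase on together with CDC45 and the GINS complex, the polymerases copy the strands with PCNA as their sliding clamp, and ribonucleotide reductase and thymidylate synthase supply the nucleotides. Many of these genes are switched on by E2F factors as cells pass from G1 into S phase, and myoblasts leave the cell cycle before they fuse.

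The targeted genes were read first as a check of the labels. Levels are given as normalized CPM, which scales counts to library size with TMM within a table, unless TPM, which also corrects for exon length, is named. *Prkaa1* lay at 159 and 159 normalized CPM in WT d0 and at 79.7 and 78.0 in AMPK-KO d0. At d8 it lay at 126 and 125 in WT and at 83.3 and 82.5 in AMPK-KO. *Prkaa2* lay at 1.69 and 1.79 in WT d0 and at 0.209 and 0.421 in AMPK-KO d0, and at 6.22 and 10.1 against 1.26 and 0.826 at d8. Both genes were thus lower in every AMPK-KO library than in every WT library of the same day. The counts cover whole genes and do not show the edited exons. *Tet2* lay between 13.8 and 22.6 normalized CPM in the first table and between 7.89 and 58.4 in the second, where the 2 libraries of TET2-WT clone 2, at 58.4 and 56.2, were the highest.

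The replication genes were lower at d8 than at d0 in WT cells. Of the 45 members 41 fell in the edgeR quasi-likelihood test (adjusted p under 0.05 over all 14329 genes tested) and none rose, against 6.58% of all genes tested called lower and 5.78% called higher. The median log2 fold change was -2.12, with a range from -3.69 for *Mcm10* to -0.46 for *Orc2*, beside a median of 0.01 over all genes. In all 45 members both d8 libraries lay below both d0 libraries, which was so for 30.2% of all genes. The 4 members that were not called were *Rrm2* (adjusted p = 0.055), *Gins4* (0.0788), *Gins3* (0.0797) and *Orc2* (0.2). In bulk RNA, fewer cells in S phase and less RNA of these genes per cell cannot be told apart.

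The genes were also lower at d8 in AMPK-KO cells. Here too 41 of 45 members fell and none rose, beside 4.95% of all genes called lower and 4.81% called higher, with a median log2 fold change of -1.86 and a range from -3.23 for *Mcm10* to -0.75 for *Rfc1*. All 45 again had both d8 libraries below both d0 libraries, which was so for 28.9% of all genes. *Tyms*, *E2f8*, *Gins3* and *Cdt1* were not called, with adjusted p between 0.0546 and 0.108. Across the genotypes 38 members were called lower in both, 3 in WT alone, 3 in AMPK-KO alone and *Gins3* in neither.

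**Figure D1:**
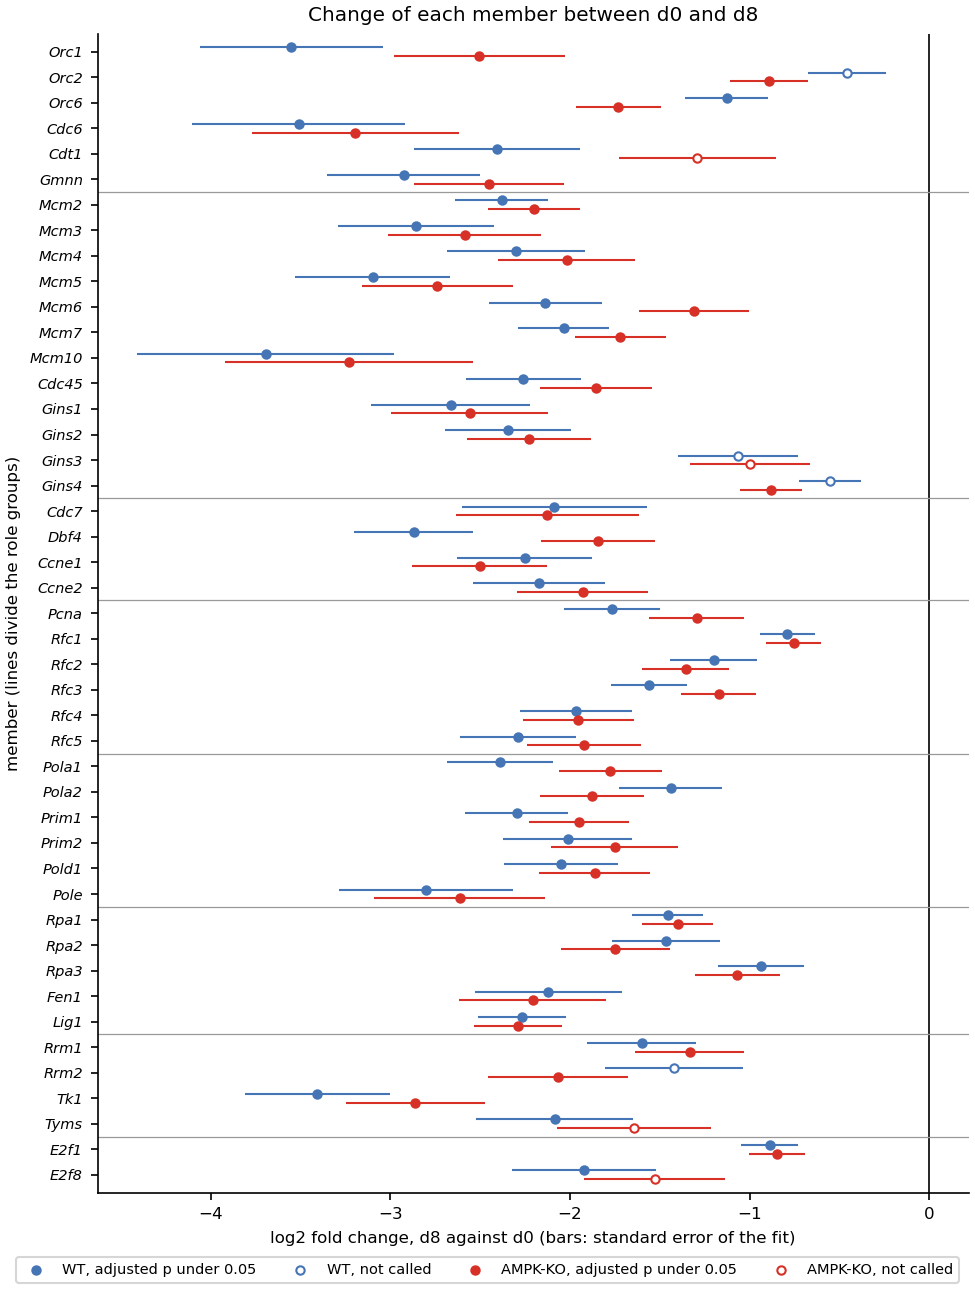
Log2 fold change of each of the 45 members, d8 against d0, in WT (blue) and AMPK-KO cells (red), with bars of 1 standard error of the edgeR fit, filled points where the adjusted p was under 0.05 and open points where it was not. Every point lies left of 0, with *Mcm10* farthest (-3.69 in WT) and *Orc2*, *Rfc1*, *Gins4* and *E2f1* nearest.

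The counts changed when single libraries were left out. When WT d0 replicate 2, WT d8 replicate 1 or WT d8 replicate 2 was left out, 0 members and 0 genes in all were called lower in WT at d8, while all 45 members kept a negative log2 fold change and their median stayed between -2.26 and -1.81. Without WT d0 replicate 1 the count was 39, beside 8.46% of all genes called lower, and without any 1 AMPK-KO library it was 36 to 41, beside 3.66% to 6.07%. In AMPK-KO cells 0 members were called without AMPK-KO d0 replicate 1 or replicate 2, where 0 genes and 1 gene in all were called lower. The count was 10 without AMPK-KO d8 replicate 2 (0.684% of all genes called lower), 20 without WT d8 replicate 2 (1.17%) and 26 without WT d8 replicate 1 (1.55%), again with all 45 negative. It was 35 without AMPK-KO d8 replicate 1 (2.72%), 40 without WT d0 replicate 1 (5.63%) and 41 without WT d0 replicate 2 (5.95%), and the cause of these changes was not tested.

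The 6 origin licensing genes had medians of -2.67 in WT and -2.09 in AMPK-KO cells, with 5 called lower in each. *Orc1*, the regulated large subunit of the origin recognition complex (chr4:108579423-108614833, GRCm38), lay at 9.16 and 10.6 normalized CPM in WT d0 and at 0.881 and 0.798 in WT d8, a log2 fold change of -3.55 ± 0.51 (SE, adjusted p = 0.0143). In AMPK-KO cells it lay at 11.3 and 7.06 at d0 and at 2.28 and 0.923 at d8 (-2.50 ± 0.48, adjusted p = 0.028). *Orc6*, the small subunit and the licensing gene with the highest TPM (63.2 on average over the 8 libraries), lay at 70.0 and 57.7 in WT d0 and at 32.2 and 26.3 in WT d8. Its level in AMPK-KO cells was 73.0 and 55.2 at d0 and 22.2 and 16.5 at d8. *Orc6* therefore fell by 1.13 ± 0.23 on the log2 scale in WT (adjusted p = 0.0273) and by 1.73 ± 0.24 in AMPK-KO cells (adjusted p = 0.0209). *Orc2*, a core subunit, had a log2 fold change of -0.46 ± 0.22 in WT and -0.89 ± 0.22 in AMPK-KO cells (adjusted p = 0.0471), and 29.8% of its exonic bases also lie in *Nif3l1* on the opposite strand, so its counts are uncertain. *Cdc6*, which loads the helicase with CDT1, fell by 3.51 ± 0.59 in WT and 3.19 ± 0.58 in AMPK-KO cells, and *Gmnn*, the CDT1 inhibitor geminin, fell by 2.92 ± 0.43 and 2.45 ± 0.42.

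The 12 helicase genes had medians of -2.32 in WT and -2.11 in AMPK-KO cells, with 10 and 11 called lower. *Mcm6* (chr1:128331590-128359664), 1 of the 6 subunits of the MCM ring, had the highest TPM of the group (126 on average) and lay at 184 and 248 normalized CPM in WT d0 against 46.8 and 51.3 in WT d8. In AMPK-KO cells it lay at 332 and 247 at d0 and at 149 and 84.1 at d8. The fall was 2.14 ± 0.32 on the log2 scale in WT and 1.31 ± 0.31 in AMPK-KO cells (adjusted p = 0.0146 and 0.0428), and among *Mcm2* to *Mcm7* it was the smallest in AMPK-KO cells. *Mcm5* fell by 3.10 ± 0.43 and 2.74 ± 0.42, the largest point estimates in the ring, and the falls of the 6 genes were not tested against each other. Their mean levels per length over the 8 libraries ran from 49.0 TPM for *Mcm2* through 76.1 for *Mcm5*, 86.2 for *Mcm7*, 102 for *Mcm4* and 105 for *Mcm3* to 126 for *Mcm6*.

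*Mcm10*, which helps to start unwinding, showed the largest log2 fold change of all members. It lay at 26.4 and 38.1 normalized CPM in WT d0 and at 2.92 and 2.06 in WT d8 (-3.69 ± 0.72, adjusted p = 0.0232). In AMPK-KO cells it lay at 53.4 and 30.0 at d0 and at 7.30 and 1.51 at d8 (-3.23 ± 0.69, adjusted p = 0.0349), so that the 2 d8 libraries were far apart. The GINS subunits differed in size of change. *Gins1* and *Gins2* fell by 2.66 ± 0.44 and 2.34 ± 0.35 in WT, whereas *Gins3* and *Gins4* had log2 fold changes of -1.06 ± 0.33 and -0.55 ± 0.17 that were not called there. *Gins2* shares 67.3% of its exonic bases with *Gse1* on the opposite strand, so its counts are uncertain. *Cdc45*, the third part of the active helicase, fell by 2.26 ± 0.32 in WT and by 1.85 ± 0.31 with AMPK deleted.

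All 4 genes of the S phase kinases and cyclins fell in both genotypes, with medians of -2.21 in WT and -2.03 in AMPK-KO cells. *Dbf4*, the activating subunit of the CDC7 kinase, lay at 52.0 and 105 normalized CPM in WT d0 and at 11.0 and 10.4 in WT d8. In AMPK-KO cells it lay at 87.7 and 108 at d0 and at 28.1 and 26.5 at d8. The d8 levels of the 2 genotypes did not overlap, while the d0 levels did. *Ccne1*, which encodes cyclin E1, lay at 26.7 and 45.7 in WT d0, at 8.48 and 6.71 in WT d8, at 56.1 and 38.9 in AMPK-KO d0 and at 10.4 and 6.32 in AMPK-KO d8. Its log2 fold change was -2.25 ± 0.38 in WT and -2.50 ± 0.38 in AMPK-KO cells (adjusted p = 0.0165 and 0.0217).

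The 6 genes of the clamp and its loader had medians of -1.66 in WT and -1.33 in AMPK-KO cells, and all 6 were called in each. *Pcna* (chr2:132249162-132253314), the sliding clamp, had the second highest mean TPM of all members (221). It lay at 202 and 266 normalized CPM in WT d0 and at 77.2 and 60.6 in WT d8, and at 233 and 193 in AMPK-KO d0 against 105 and 68.6 in AMPK-KO d8. Its log2 fold change was -1.76 ± 0.27 in WT and -1.29 ± 0.26 in AMPK-KO cells, and the processed pseudogene *Pcna-ps2* matches it at 99.2% of bases over 781, so reads may be split between them. Of the 5 clamp loader subunits *Rfc5* moved most in WT cells, from 42.2 and 61.3 in WT d0 to 10.7 and 10.5 in WT d8 (-2.29 ± 0.32) and from 56.4 and 53.0 to 18.7 and 10.2 in AMPK-KO cells (-1.92 ± 0.32), where *Rfc4* was at -1.95 ± 0.31. *Rfc1*, the large subunit, moved least (-0.79 ± 0.15 and -0.75 ± 0.15).

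All 6 polymerase and primase genes fell in both genotypes (medians -2.17 and -1.87). *Prim1*, the catalytic primase subunit, lay at 42.5 and 66.5 normalized CPM in WT d0, at 11.3 and 10.9 in WT d8, at 107 and 90.3 in AMPK-KO d0 and at 30.5 and 20.6 in AMPK-KO d8. AMPK-KO libraries were thus above WT libraries on each day, with falls of 2.30 ± 0.29 and 1.95 ± 0.28. *Pole*, the catalytic subunit of the leading-strand polymerase, lay at 39.2 and 51.0 in WT d0 and at 7.33 and 5.63 in WT d8, and at 62.4 and 42.8 against 12.6 and 4.52 in AMPK-KO cells. It had the largest change of the group (-2.80 ± 0.48 and -2.61 ± 0.48).

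All 5 genes of single-strand binding and lagging-strand work fell as well, with medians of -1.46 in WT and -1.75 in AMPK-KO cells. *Rpa1*, the large subunit of replication protein A, was the most abundant per length (108 TPM). It lay at 186 and 254 normalized CPM in WT d0 and at 79.4 and 81.0 in WT d8, and at 296 and 263 against 115 and 97.4 in AMPK-KO cells. *Lig1*, the ligase that joins Okazaki fragments, lay at 72.6 and 91.3 in WT d0 and at 16.6 and 17.5 in WT d8, and at 111 and 88.2 against 24.4 and 16.3 in AMPK-KO cells. Their log2 fold changes in WT were -1.45 ± 0.20 for *Rpa1* and -2.27 ± 0.25 for *Lig1*. *Fen1*, the flap endonuclease, shares 78.8% of its exonic bases with the antisense gene *Gm10143*, and its level of 5.96 TPM is uncertain for that reason.

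Among the nucleotide supply genes *Rrm2*, the small subunit of ribonucleotide reductase, had the highest level of all members per length (446 TPM on average). It lay at 473 and 591 normalized CPM in WT d0 and at 240.0 and 157 in WT d8, a log2 fold change of -1.42 ± 0.38 short of the threshold (adjusted p = 0.055). In AMPK-KO cells it lay at 647 and 437 at d0 and at 172 and 86.9 at d8 and fell by 2.06 ± 0.39 (adjusted p = 0.0277). *Rrm2* had at d8 a level above that of any other member in WT, at 320 and 209 TPM. *Tk1*, thymidine kinase, lay at 66.9 and 93.7 normalized CPM in WT d0 and at 7.22 and 7.93 in WT d8 (-3.40 ± 0.40, adjusted p = 0.0143). In AMPK-KO cells it lay at 112 and 101 at d0 and at 20.5 and 8.84 at d8 (-2.86 ± 0.39). *Rrm1*, the large reductase subunit, fell by 1.60 ± 0.31 and 1.33 ± 0.30, and *Tyms*, thymidylate synthase, by 2.08 ± 0.44 in WT.

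The 2 E2F members had medians of -1.40 in WT and -1.19 in AMPK-KO cells. *E2f1*, an activator, lay at 62.1 and 53.0 normalized CPM in WT d0 and at 32.4 and 29.8 in WT d8, and at 57.0 and 54.6 against 32.5 and 29.5 in AMPK-KO cells, so the genotypes were close on each day. It fell by 0.89 ± 0.16 in WT and 0.85 ± 0.16 in AMPK-KO cells. *E2f8*, a repressor of the family, lay at 54.8 and 87.1 in WT d0 and at 23.1 and 14.4 in WT d8 (-1.92 ± 0.40, adjusted p = 0.0281). In AMPK-KO cells *E2f8* lay at 111 and 81.6 at d0, and at d8 it was 43.6 and 23.2, a change short of the threshold (-1.53 ± 0.39, adjusted p = 0.0546).

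**Figure D2:**
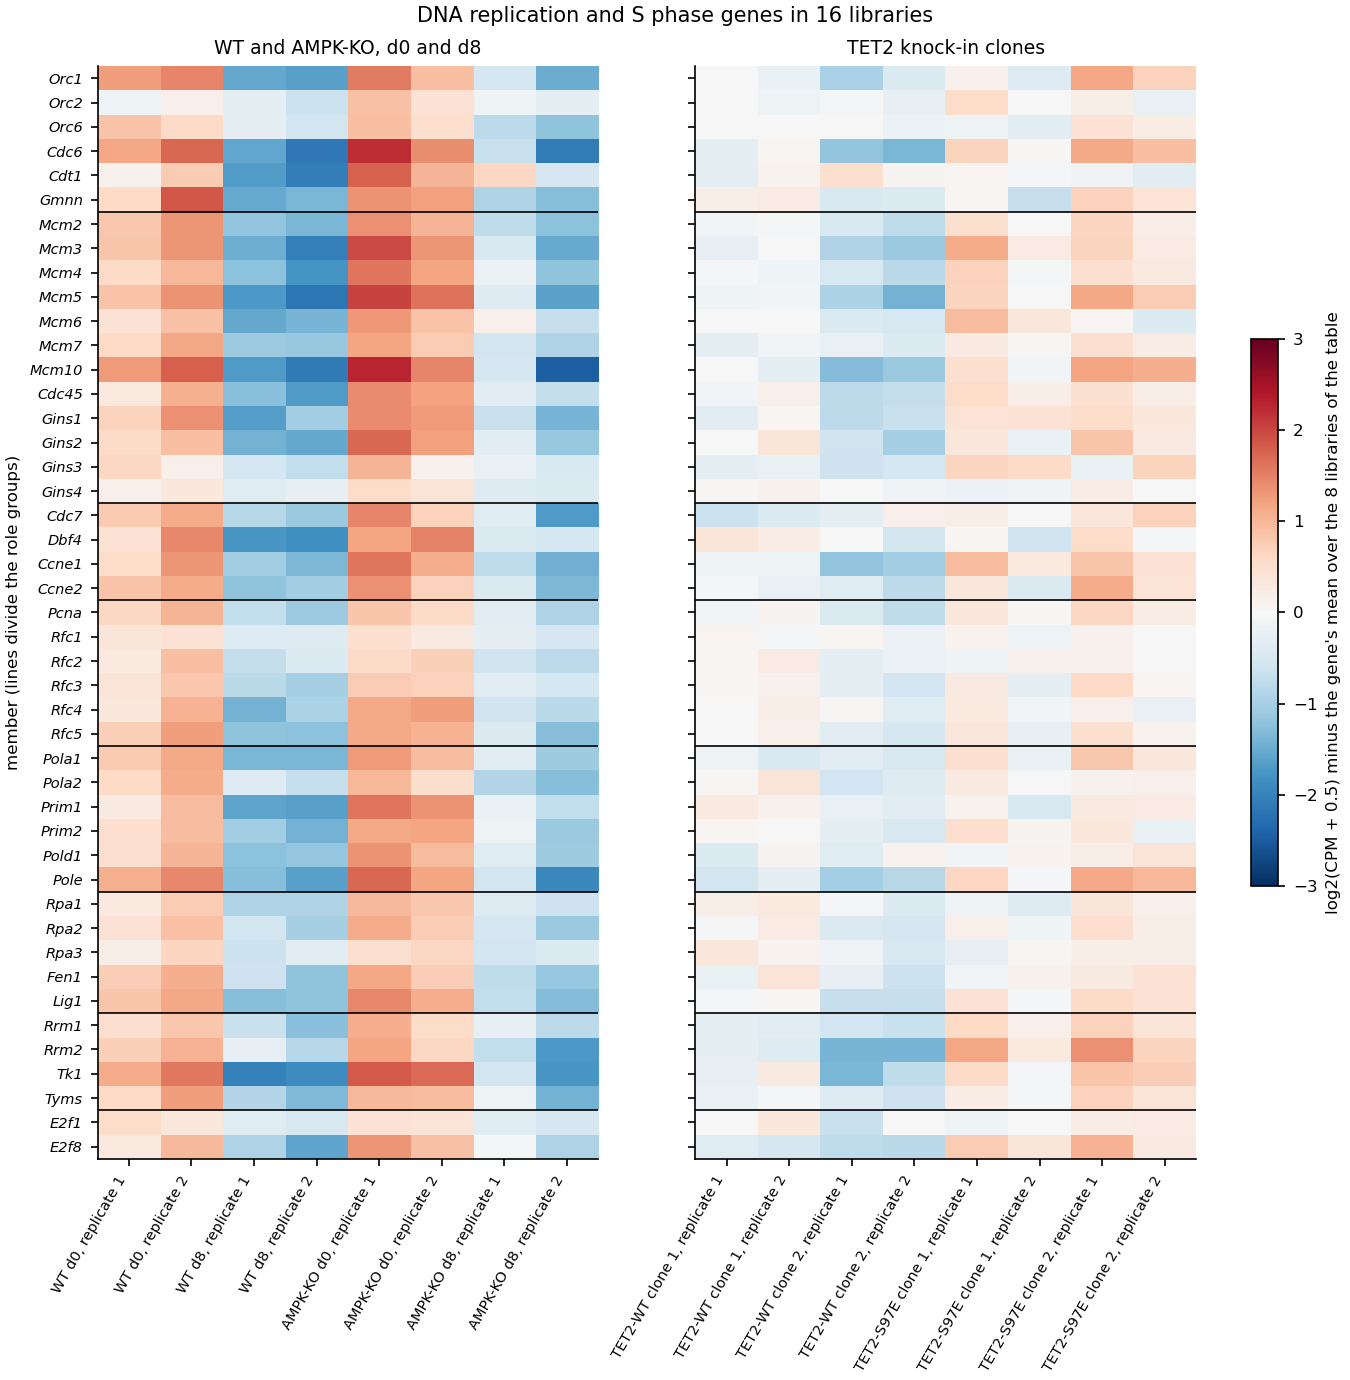
Heat map of log2(CPM + 0.5) of the 45 members in the 16 libraries, each gene centred on its mean over the 8 libraries of its table, which were normalized apart; red is above and blue below that mean. In the left panel nearly all values of the 4 d0 libraries are above the mean and nearly all of the 4 d8 libraries below it, with AMPK-KO d8 replicate 1 paler than replicate 2, and in the right panel the libraries of TET2-WT clone 2 are mostly below the mean.

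Because the members moved together, the RefSeq windows from 250 bases before to 50 bases after their starts (GRCm38.p6) were searched for the letters of an E2F site, which were TTTCCCGC, TTTCGCGC, TTTGCCGC or TTTGGCGC on either strand. A window was given for 36 of the 45 members, and 12 of the 36 genes (33.3%) held a match, against 2.6% of the 27025 genes in the promoter table. The members' windows had a median GC content of 61.3%, against 52.7% for all windows. The pentamer CCAAT or its complement was in the windows of 61.1% of the members and 41.1% of all genes. TTTGAA, the core of the cell cycle homology region of mitotic genes, was in 19.4% of the members and 20.2% of all genes, while it was in 76.5% of the 17 mitosis genes with a window, of which 5.88% held the E2F letters. The E2F letters were in 33.3% of the 30 genes of other replication machinery with a window, in 40% of the 10 of chromatin assembly and histone supply and in 41.2% of the 17 of other E2F, pocket protein and G1/S regulators. They were in 0 of the 11 genes of other nucleotide synthesis and 0 of the 12 muscle genes with a window. The members with E2F letters had a median log2 fold change of -2.33 in WT at d8 and the 24 with a window and no match -1.94. This difference was not tested. A match is a description of letters and not a measured site. *Mcm6* was the only member with the highest level of its role group that held a match. The stretches of *Mcm5*, *Cdc6* and *Pola1* are set beside it because their matches also lie upstream of the RefSeq start and outside exons of GENCODE M21, a choice made after the search. The *Cdc6* gene of GENCODE starts further upstream, at chr11:98907801, so its stretch lies inside that gene. Each stretch is written 5′ to 3′ on the strand of its gene with the matching letters in capitals, at chr1:128359735-128359825 on the minus strand, chr8:75109346-75109377 on the plus strand, chr11:98908003-98908030 on the plus strand and chrX:93632276-93632303 on the minus strand.
Mcm6: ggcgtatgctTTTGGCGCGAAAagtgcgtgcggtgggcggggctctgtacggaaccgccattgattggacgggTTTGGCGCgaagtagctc
Mcm5: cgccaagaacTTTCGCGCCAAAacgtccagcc
Cdc6: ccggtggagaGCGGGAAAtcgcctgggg
Pola1: tcatcacaggGCGCCAAAtgcactcccg

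The first capital runs of *Mcm6* and *Mcm5* each hold 2 matches that overlap, 1 on each strand, and *Mcm6* holds 3 matches in all, the nearest ending 39 bases before the start.

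Genes around the replication core were read from lists chosen by function. Of 35 other replication genes 18 fell and none rose in WT, and 17 fell in AMPK-KO cells, with medians of -1.04 and -0.88. *Timeless*, a fork protection gene, lay at 32.7 and 44.4 normalized CPM in WT d0 and at 7.38 and 6.24 in WT d8 (-2.50 ± 0.32). *Topbp1*, needed for helicase activation, fell by 2.10 ± 0.27 and *Atad5*, which unloads PCNA, by 2.61 ± 0.40. The genes of this list that were not called in WT included the ORC subunits *Orc3* (0.19), *Orc4* (-0.26) and *Orc5* (-0.85), given as log2 fold changes, so that of the ORC genes only *Orc1* and *Orc6* were called lower in WT.

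Of 10 genes for chromatin assembly and histone supply 9 fell in each genotype (medians -2.42 in WT and -2.11 in AMPK-KO cells), among them *Slbp*, the histone mRNA binding protein (-1.90 ± 0.25 in WT), *Chaf1b*, a subunit of chromatin assembly factor 1 (-3.00 ± 0.41), and the chromatin remodeller *Hells* (-2.98 ± 0.43). Of 13 other genes of nucleotide synthesis 6 fell and 1 rose in WT and 8 fell in AMPK-KO cells. The nucleoside kinase gene *Dck* fell by 2.28 ± 0.38 in WT and *Dut*, the dUTPase gene, by 1.62 ± 0.30. The gene that rose was *Rrm2b* (0.81), the reductase subunit that quiescent cells use.

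Among 24 other genes of the E2F, pocket protein and G1/S machinery 10 fell and 2 rose in WT, and 8 fell and 2 rose in AMPK-KO cells. *Ccna2*, which encodes cyclin A2, lay at 151 and 276 normalized CPM in WT d0 and at 19.2 and 21.6 in WT d8, and at 191 and 209 against 49.2 and 17.6 in AMPK-KO cells (-3.39 ± 0.51 in WT and -2.58 ± 0.49 in AMPK-KO cells). *Rbl1*, the pocket protein p107, fell by 2.09 ± 0.22 in WT and *Fbxo5*, an inhibitor of the anaphase-promoting complex, by 3.41 ± 0.51. The 2 that rose in each genotype were *Cdkn1a*, the CDK inhibitor p21 (1.88 ± 0.29 in WT and 1.89 ± 0.29 in AMPK-KO cells), and *Ccnd3*, cyclin D3 (1.30 ± 0.19 in WT). *Cdkn1a* lay at 248 and 237 in WT d0, at 812 and 969.5 in WT d8, at 173 and 189 in AMPK-KO d0 and at 478 and 859 in AMPK-KO d8.

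All 20 mitosis genes fell in both genotypes, with medians of -3.53 in WT and -2.79 in AMPK-KO cells, each below the median of the replication members. *Cenpf* fell by 2.91 ± 0.30 in WT, *Cdc20* by 3.73 ± 0.39 and *Plk1*, the mitotic kinase, by 3.71 ± 0.46. *Mki67*, the proliferation marker, lay at 192 and 319 normalized CPM in WT d0 and at 20.2 and 22.3 in WT d8, and at 280.0 and 264 against 62.6 and 19.9 in AMPK-KO cells, where AMPK-KO d8 replicate 1 stood above the other 3 d8 libraries.

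The genes of differentiated muscle moved the other way. The study reported that AMPK-KO cells lost the ability to form myotubes, judged by cell shape and myosin heavy chain protein. The RNA levels given here do not measure either. Of 16 listed genes 15 were tested and 12 rose in WT and 11 in AMPK-KO cells, and their summed level was 1656 and 1940 TPM in WT d0, 857 and 1115 in AMPK-KO d0, 17746 and 24022 in WT d8, and 6720 and 30274 in AMPK-KO d8. *Myog*, myogenin, lay at 29.5 and 19.6 normalized CPM in WT d0 and at 255 and 429 in WT d8, and at 0.628 and 0.561 against 63.9 and 192 in AMPK-KO cells. *Myom1* rose by 6.25 ± 0.77 in WT, *Mymx*, a fusion gene, by 4.69 ± 0.58 and *Mylpf*, a fast myosin light chain, by 5.29 ± 0.75. Of 5 myoblast genes none was called in WT and 2 rose in AMPK-KO cells, with *Itga7* at 1.13 ± 0.34, *Myf5* at -0.68 ± 0.21 and *Myod1* at 0.55 ± 0.41 in WT. Against WT at d0, *Pax7* (-8.13 ± 0.87, adjusted p = 0.00863) and *Myod1* (-3.29 ± 0.45, adjusted p = 0.0147) were called lower in AMPK-KO cells. *Myf5*, *Cdh15* and *Itga7* were not called. At d8 *Pax7* was again lower (-7.28 ± 0.80, adjusted p = 0.00629) and *Myod1* was not called.

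AMPK-KO d8 replicate 1 had the lowest muscle level and the highest replication level of the d8 libraries. The 45 members summed to 1521 TPM in it, against 980 in replicate 2, 1198 and 996 in WT d8, 3056 and 3858 in WT d0, and 4368 and 3544 in AMPK-KO d0. Without that library 35 of 45 members and 2.72% of all genes were called lower in AMPK-KO cells, and the members had a median of -2.25.

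Markers of other cell types were read beside these values. The 5 fibroblast genes summed to 34.4 and 12.8 TPM in WT d0 and 12.2 and 15.2 in AMPK-KO d0 and to 599 and 923 in WT d8 and 201 and 263 in AMPK-KO d8. At d8 the most abundant was *Dcn*, with 557 and 861 TPM in WT. In WT 4 of the 5 rose, with *Dcn* at 5.48 ± 0.62, *Lum* at 5.69 ± 0.93 and *Pi16* at 4.01 ± 0.76, and in AMPK-KO cells 2 rose. Their part in the drop of the replication genes was not tested. Of the 5 leukocyte genes *Cd68* alone passed the filter (0.97 lower on the log2 scale in WT at d8, adjusted p = 0.172), and in each of the 8 libraries the other 4, among them the defining marker *Ptprc*, had 3 counts or fewer. The summed level was at most 7.74 TPM. Of the 5 endothelial genes *Tek* was the most abundant and 2 were tested, *Tek* (0.67 ± 0.72) and *Kdr* (1.69 ± 1.24), with sums of at most 8.86 TPM. The 5 adipocyte genes, among them *Adipoq*, had 3 counts or fewer in all 8 libraries.

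**Figure D3:**
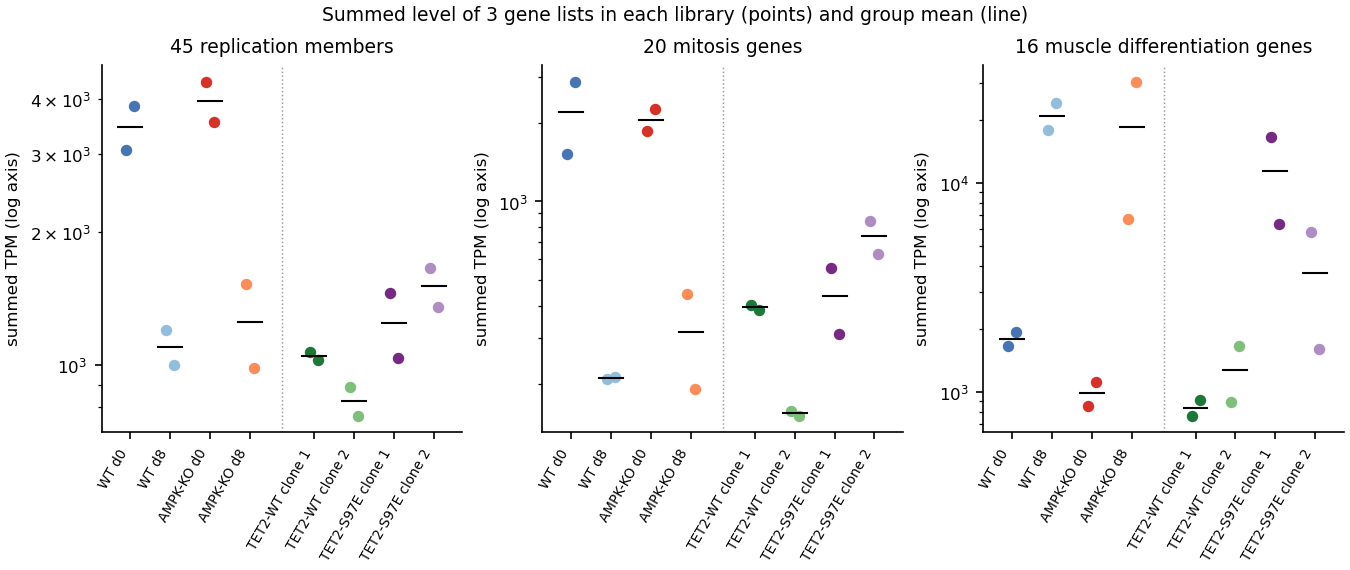
Summed TPM (log axis) of the 45 members, the 20 mitosis genes and the 16 muscle differentiation genes in each library (points) with the group mean (lines); the dotted line parts the 2 count tables. The members lie between 3056 and 4368 TPM in the d0 libraries of the first table and between 766 and 1655 in the knock-in libraries. In the first table the muscle genes lie highest at d8.

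Whether the replication genes differed between AMPK-KO and WT cells was asked by day. The AMPK-KO cells were grown from selected clones, so loss of AMPK and clonal origin cannot be told apart. At d0 no member was called in AMPK-KO against WT cells, beside 2.83% of all genes called lower and 0.698% called higher, and 2 members had an unadjusted p under 0.05, as did 20.9% of all genes. The DESeq2 Wald test also called 0 members, beside 6.83% of all genes called lower and 2.38% called higher. The median log2 fold change was 0.24 (38 of 45 positive) beside 0.00 over all genes, and it was 0.05 without WT d0 replicate 1, 0.07 without AMPK-KO d0 replicate 1 and 0.46 without WT d0 replicate 2. The members with the lowest adjusted p were *Prim1* (0.86 ± 0.27, adjusted p = 0.138) and *Orc2* (0.67 ± 0.22, adjusted p = 0.143), of which *Orc2* lay at 113 and 83.2 normalized CPM in AMPK-KO cells, above the 55.1 and 67.9 of WT cells.

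At d8 *Cdt1*, the licensing factor that loads the helicase (chr8:122568015-122573554), was the only member called. It was higher in AMPK-KO cells, beside 1.36% of all genes called higher and 3.98% called lower. It lay at 9.25 and 6.94 normalized CPM in WT d8 and at 47.3 and 21.4 in AMPK-KO d8, a log2 fold change of 2.09 ± 0.46 (adjusted p = 0.047), and at 33.6 and 52.3 against 106 and 62.5 at d0 (0.97 ± 0.43, adjusted p = 0.26). AMPK-KO libraries lay above WT libraries on each day without overlap, the smallest p of an exact two-sided permutation test of 2 against 2 libraries being 0.333. The call was kept in 1 of 8 fits that left out a library, the one without AMPK-KO d8 replicate 2, with log2 fold changes between 1.42 and 2.51 and adjusted p between 0.0256 and 0.253. Without WT d0 replicate 1 or replicate 2 it was *Dbf4* and *Prim1* that were called higher, beside 1.74% and 1.48% of all genes, and without AMPK-KO d8 replicate 2 *Mcm6* and *Tk1* were called higher as well, beside 1.19%. With all 8 libraries the members next in order were not called, with *Prim1* at 1.21 ± 0.28 (adjusted p = 0.0554), *Dbf4* at 1.35 ± 0.32 (0.0589) and *Mcm6* at 1.25 ± 0.31 (0.0664). An unadjusted p under 0.05 was reached by 12 members and by 22.8% of all genes, and the DESeq2 Wald test called 4 members higher, beside 3.34% of all genes called higher and 7.22% called lower. With the replicate number as a block 3 members were called, *Cdt1* and *Dbf4* higher and *Orc6* lower, beside 2.3% of all genes called higher and 5.69% called lower.

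The median of the 45 members at d8 was 0.41 (36 of 45 positive) beside 0.04 over all genes, and 19 members had both AMPK-KO libraries above both WT libraries and 3 the reverse, against 30.0% and 27.9% of all genes. The median was 0.12 without AMPK-KO d8 replicate 1 and 0.67 without replicate 2. Of the 20 mitosis genes 19 were also positive at d8, with a median of 0.58 and none called, and their part in the result was not tested.

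**Figure D4:**
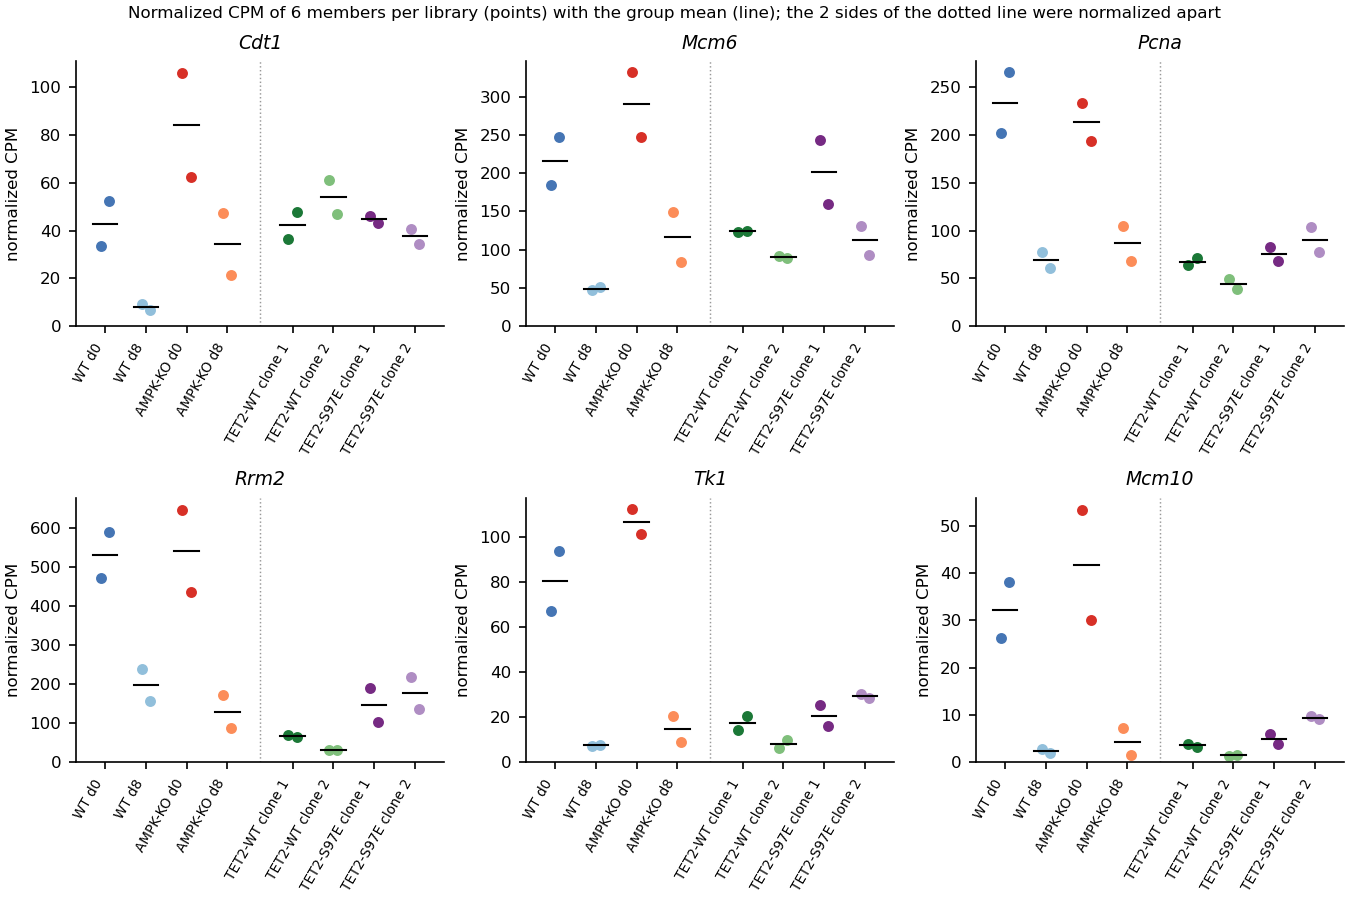
Normalized CPM of *Cdt1*, *Mcm6*, *Pcna*, *Rrm2*, *Tk1* and *Mcm10* in each library (points) with the group mean (lines), the 2 tables being normalized apart on either side of the dotted line. *Cdt1* in AMPK-KO d8 (47.3 and 21.4) lies above WT d8 (9.25 and 6.94), and *Rrm2* in TET2-WT clone 2 (32.2 and 31.9) lies below every other library.

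The difference between the genotypes in their change from d0 to d8 was tested by its own contrast. No member and no gene was called (0.0% in either direction), and no member had an unadjusted p under 0.05, against 5.09% of all genes. The DESeq2 Wald test also called 0 members, beside 0.202% of all genes called lower and 0.174% called higher. The fitted fall was smaller in AMPK-KO cells for 33 members and larger for 12, with a median difference of 0.24 beside 0.04 over all genes. *Dbf4* (1.03 ± 0.44, adjusted p = 0.984) and *Mcm6* (0.83 ± 0.43, adjusted p = 1) had the lowest unadjusted p. The sign of the median turned when WT d0 replicate 2 (-0.04) or AMPK-KO d8 replicate 1 (-0.19) was left out. The contrast shares all its libraries with the comparisons above.

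In the knock-in cells, described as undifferentiated, the members summed to 766 to 1655 TPM over the 8 libraries. This was below the 3056 to 4368 TPM of the d0 libraries of the first table, and the range spanned the levels of its d8 libraries. The 2 tables are separate experiments and these levels were not tested against each other. TET2-WT clone 1 had 1070 and 1024 TPM, TET2-WT clone 2 889 and 766, TET2-S97E clone 1 1451 and 1034, and TET2-S97E clone 2 1655 and 1351.

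Whether the S97E change moved the replication genes was tested with the counts summed per clone, 2 clones against 2. No member and no gene of 15126 was called (0.0% in either direction) by edgeR, although 12 members and 10.4% of all genes had an unadjusted p under 0.05. The DESeq2 Wald test called 4 members higher, *Rrm2*, *Rrm1*, *E2f8* and *Pole*, beside 2.38% of all genes called higher and 1.36% called lower. The median log2 fold change was 0.50 (41 of 45 positive) beside -0.01 over all genes, and it was 0.25 without TET2-WT clone 2 and 0.78 without TET2-WT clone 1. In 13 members all 4 TET2-S97E libraries lay above all 4 TET2-WT libraries and in none below, against 7.05% and 7.77% of all genes.

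*E2f8* and *Rrm1* had the lowest adjusted p. *E2f8* lay at 16.2 and 14.7 normalized CPM in TET2-WT clone 1, at 12.3 and 11.7 in clone 2, at 36.0 and 27.2 in TET2-S97E clone 1 and at 43.8 and 25.4 in clone 2 (1.20 ± 0.22, adjusted p = 0.277). *Rrm1* lay at 74.1 and 70.3, 60.1 and 56.2, 135 and 99.0, and 143 and 117 in the same order (0.87 ± 0.20, adjusted p = 0.305). *Rrm2* had the largest difference of all members (1.61 ± 0.38, adjusted p = 0.307), at 69.2 and 65.3, 32.2 and 31.9, 190 and 104, and 220 and 136. *Cdt1* had a difference of the opposite sign, at 36.6 and 47.7, 61.1 and 46.8, 46.2 and 43.2, and 40.8 and 34.6 (-0.27). A model that took the 8 libraries as independent called 8 members higher, which were *Mcm3*, *Mcm7*, *Gins3*, *Ccne1*, *Pole*, *Rrm1*, *Rrm2* and *E2f8*, beside 3.71% of all genes called higher and 3.28% called lower, and the libraries of a clone are not replicates of the genotype.

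Muscle and mitosis genes were set beside the members in these clones, and none of them was called. The 16 muscle genes summed to 16475 and 6353 TPM in TET2-S97E clone 1 and 5804 and 1603 in clone 2, against 769 and 909 in TET2-WT clone 1 and 892 and 1650 in clone 2. *Mki67* lay at 95.8 and 59.7 normalized CPM and 117 and 125 in the TET2-S97E clones and at 43.2 and 31.6 and 19.6 and 28.0 in the TET2-WT clones (1.68 ± 0.32, adjusted p = 0.277). All 20 mitosis genes had positive log2 fold changes (median 0.97). *Ccna2* (1.12 ± 0.50) and *Cdkn1a* (1.61 ± 0.36) were not called either. The members summed to 1451 and 1034 TPM in TET2-S97E clone 1 and to 1655 and 1351 in clone 2, against 766 to 1070 TPM in the TET2-WT libraries. The muscle sums of TET2-S97E clone 1 and of clone 2 replicate 1 lay above those of every d0 library of the first table. The part of the muscle genes in the result was not tested. Mitochondrial genes took 2.29% and 2.12% of counts in TET2-S97E clone 1 and 2.03% and 2.09% in clone 2, against 1.14% and 1.00% in TET2-WT clone 1 and 1.38% and 2.14% in clone 2, and the part of this share was not tested. The fibroblast genes summed to between 132 and 371 TPM in the TET2-WT libraries and between 139 and 666 in the TET2-S97E libraries, with *Dcn* the most abundant, and their part in the differences was not tested. *Pax7* lay at 2.12 and 1.65 and at 2.53 and 10.5 in the TET2-S97E clones, and at 0.159 or less in all 4 TET2-WT libraries.

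The clones of 1 genotype were compared as well. TET2-WT clone 2 had lower values than clone 1 for 42 of 45 members, with a median of -0.52 beside 0.00 over all genes. None was called, beside 0.394% of all genes called lower and 0.463% called higher, and 19 had an unadjusted p under 0.05, as did 20.5% of all genes. The DESeq2 Wald test called 9 members lower, beside 2.78% of all genes called lower and 3.76% called higher, and a fit with the replicate number as a block called *Mcm5*, *Cdc6* and *Rrm2* lower, beside 2.19% and 2.49%. *Cdc6* lay at 4.22 and 5.48 normalized CPM in clone 1 and at 2.02 and 1.70 in clone 2 (-1.39 ± 0.32, adjusted p = 0.0826). *Mcm5* lay at 30.7 and 31.7 and at 17.2 and 12.3 (-1.08 ± 0.27, adjusted p = 0.0979). Of the 20 mitosis genes 7 were called lower in clone 2, with a median of -1.48.

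TET2-S97E clone 2 had higher values than clone 1 for 35 of 45 members, with a median of 0.29 beside 0.03 over all genes, and none was called, beside 3.35% of all genes called higher and 2.82% called lower. An unadjusted p under 0.05 was found for 11 members and 19.5% of all genes, and the DESeq2 Wald test called 1 member lower, beside 4.69% of all genes called lower and 4.24% called higher. With the replicate number as a block *Ccne2* and *Orc6* were called higher and *Mcm6* lower, beside 5.55% of all genes called higher and 5.1% called lower. *Ccne2* shares 17.4% of its exonic bases with *Ints8* on the opposite strand, so its counts are uncertain. The median was 0.13 without TET2-S97E clone 1 replicate 2 (28 of 45 members positive) and 0.10 without TET2-S97E clone 2 replicate 1 (26 positive). Leaving out TET2-S97E clone 1 replicate 1 or clone 2 replicate 2 went the other way, with 41 and 39 members positive. *Mcm6* had a difference of the opposite sign, at 244 and 160 normalized CPM in clone 1 and 131 and 93.4 in clone 2 (-0.85 ± 0.23, adjusted p = 0.0639), while *Mcm5* lay at 54.1 and 33.6 and at 75.8 and 57.3. *Orc6* lay at 21.3 and 18.9 and at 31.9 and 27.6 (0.57 ± 0.17, adjusted p = 0.0938). The median between the TET2-WT clones (-0.52) was as large in size as the one between the genotypes (0.50), and the one between the TET2-S97E clones (0.29) was smaller.

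**Figure D5:**
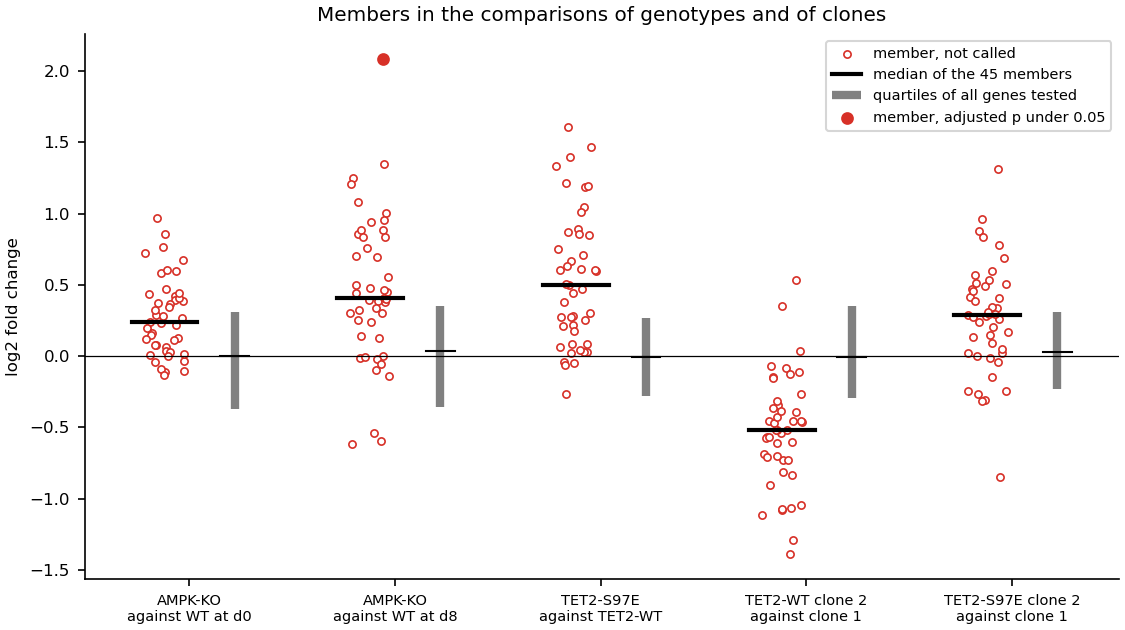
Log2 fold changes of the 45 members in 5 comparisons of genotypes and of clones (red circles, filled where the adjusted p was under 0.05), with their median (black bar) and the quartiles and median of all genes tested (grey bar). *Cdt1* at d8, at 2.09, is the only filled point, and the median between TET2-S97E and TET2-WT (0.50) is like in size to that between the TET2-WT clones (-0.52).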

How the data were processed

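The authors deposited raw gene-level read counts, made from paired-end reads with Trim Galore 0.4.5, STAR 2.5.3a and featureCounts 1.5.3 on mm10 per the labels, with GENCODE M12 per the study's methods, and not normalized. Strand use and the handling of reads with several alignments are not given in the sources used here, so overlapping, antisense and near-identical genes are uncertain.

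Here genes were named from GENCODE M21 (49326 of 49585 identifiers matched). Counts were fitted with edgeR 4.0.16 in R 4.3.3 (TMM, filterByExpr, glmQLFit, glmQLFTest), with Benjamini-Hochberg adjustment over all genes tested and a threshold of 0.05. The first table was 1 model of 4 groups, the TET2 genotypes were compared on counts summed per clone, and clones in a model of 4 clone means. Tables were normalized and tested apart. The standard error was taken from the fit, and TPM used merged exon lengths. The scripts were tested on simulated data. Alternatives were the DESeq2 1.42.0 size factors and Wald test, total counts, no filter, a replicate block, only the libraries compared, each library or clone left out, a genotype model over 8 libraries and limma 3.58.1 voom with clone as a random effect.

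The members and gene lists were chosen with earlier results of these data known. Values in every library are given for the member of highest mean TPM and of largest change in WT in each role group, and, between genotypes or clones, for up to 4 called members, or the 2 of lowest adjusted p where none was called. Up to 3 genes of lowest adjusted p in WT were named per other list, and *Ccna2*, *Cdkn1a*, *Mki67*, *Myog*, *Prkaa1*, *Prkaa2* and *Tet2* in any case. For 1 list, a gene that this rule names is not reported here. Other members and genes were named after their values were seen.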

Additional observations from a re-analysis of the deposited data

How the results depend on the processing

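The 41 members lower at d8 in WT became 40 to 43 with DESeq2 size factors, total counts, the DESeq2 Wald test, no filter, the replicate block or only the 4 libraries compared, beside 3.97% to 8.84% of all genes called lower, and 0 to 41 when 1 library was left out, beside 0.0% to 8.46%, where a lone library was assumed to vary like the other groups. In AMPK-KO cells the 41 became 27 with only the 4 libraries compared, beside 3.13% of all genes, 41 to 45 in the other fits, beside 4.75% to 7.99%, and 0 to 41 when 1 library was left out, beside 0.0% to 5.95%. All 45 members kept a negative log2 fold change at d8 in both genotypes in each of these fits.

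Between AMPK-KO and WT at d0, 4 members were called higher with no filter, beside 2.28% of all genes called higher and 5.79% called lower, and 0 to 0 when 1 library was left out. At d8, where *Cdt1* alone was called, the DESeq2 Wald test called 4 members and no filter 11, all higher, beside 3.32% of all genes called higher and 6.66% called lower with no filter, and leaving out 1 library gave 0 to 3. The difference between the genotypes in their change stayed at 0 calls in every alternative run. For TET2-S97E against TET2-WT, the DESeq2 Wald test called 4 members higher and the genotype model over 8 libraries 8, beside 2.38% and 3.71% of all genes called higher. A limma-voom fit in which clone was random called none, with a lowest adjusted p of 0.0503 among the members, just over the threshold. With 1 library or clone left out, between 32 and 44 of the 45 members had a positive log2 fold change. Between the TET2-WT clones the DESeq2 Wald test and no filter each called 9 lower, beside 2.06% of all genes called lower and 4.3% called higher with no filter. With any 1 library left out, 41 or 42 of the 45 members had a negative log2 fold change. Between the TET2-S97E clones the DESeq2 Wald test called 1 and no filter 2, *Mcm6* lower and *Ccne2* higher, beside 3.33% and 3.23% of all genes with no filter. With 1 library left out, between 26 and 41 members had a positive log2 fold change. The cause of these changes was not tested.

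The deviations of same-numbered libraries had correlations between 0.119 and 0.324 for WT and AMPK-KO cells and between -0.02 and 0.506 for the TET2 clones. No label says that a number marks a shared batch, so the numbers were not taken as pairs. The mitochondrial share of counts was higher in replicate 1 than in replicate 2 in WT d0 (1.36% and 0.568%), AMPK-KO d0 (1.16% and 0.666%), WT d8 (1.43% and 0.970%) and AMPK-KO d8 (0.977% and 0.683%). With the replicate block 43 members were called lower at d8 in each genotype, beside 8.55% of all genes in WT and 6.13% in AMPK-KO cells. It called 3 between AMPK-KO and WT at d8, 6 higher between TET2-S97E and TET2-WT in the genotype model over 8 libraries, beside 3.2% of all genes, and 3 between the clones of each genotype. With 2 libraries or clones a side, a difference that missed the threshold was not detectable here and is not shown to be absent. Total counts without TMM moved the median of all genes between the TET2-S97E clones from 0.03 to 0.11 and that of the members from 0.29 to 0.37.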
